A study of Mus musculus with 598 samples.

Results

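Eomes and T (Brachyury) are a pair of T-box transcription factors, and their rows were taken by symbol from a table of 40912 genes read in single cells of mouse embryos. Both members were found, and both are described here in every cell. The cells had been sorted for a Mesp1-GFP reporter at gastrulation. The labels give 3 groups by embryonic day: wild type (WT) cells at E6.75, knockout (KO) cells at E6.75 and WT cells at E7.25. They name neither the gene knocked out nor the strain, embryo, litter or sex, so each group was treated as 1 sample and no test between groups was possible. All 3 groups share the reporter sort, so epiblast cells without the reporter were not part of the sampling.

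T-box factors bind DNA through a conserved domain, and the family is named after T. In the gastrulating mouse embryo Eomes and T are switched on in the posterior epiblast and primitive streak, under the influence of Nodal and WNT signals. Eomes is known for its role in the earliest mesoderm and in definitive endoderm, including the activation of Mesp1, a factor of the first cardiac and cranial mesoderm. T is known for its role in posterior mesoderm and the notochord, and it takes part in a positive loop with WNT ligands.

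The libraries fell into 2 sets that the labels do not name. They were told apart by 8 genes unrelated to the members, of which set 1 cells had reads of all 8 and set 2 cells of at most 4. At E6.75 set 1 held 83 WT and 85 KO cells and set 2 held 89 WT cells. At E7.25 each set held WT cells only, about 2 times as many as its E6.75 WT cells, and set 1 held all KO cells. Set 2 was deeper: median reads per cell lay between 689539 and 940161 in the groups of set 1, against 1799030 and 2264480 in those of set 2, over a full range of 101895 to 14159574. Reads of Y-linked genes separated the cells of set 1 (53 with and 30 without in WT at E6.75, 49 and 36 in KO, 95 and 78 at E7.25) and were at the threshold in 0 cells of set 2. Ratios between groups were therefore taken within a set unless both sets are named. No label says whether a set is a plate, a litter or a sequencing run.

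The label of the cells was checked first. Mesp1 summed to 406 CPM (reads of a gene per 1000000 reads on genes) in the WT cells at E6.75 of set 1 and to 448 CPM in those of set 2, and to 531 CPM at E7.25 in each set. It summed to 7.40 CPM in the KO cells, a log2 ratio of -5.60 with 1 CPM added. The level per KO cell ran from 0 to 41.1 CPM with a median of 7.501 CPM, against 8.89 to 1324 CPM with a median of 364 CPM in the WT cells of set 1. Genes of bone marrow and blood, which the protocol text names as the source, summed to between 3.43 and 9.28 CPM over 8 genes in the 5 combinations of group and set, and Ptprc, Elane, Cd48, Spi1 and Hbb-bs were under 1 CPM in all of them. Eomes is also known in visceral endoderm and trophoblast, so their markers were read as whole lists. The 10 visceral endoderm markers summed to between 145.1 and 406.1 CPM, with up to 2637 CPM in a cell and 2 to 4 members at 5 CPM or more. Apoe, an apolipoprotein gene, made up most of this (123.1 to 366.6 CPM), while Ttr, Afp, Cubn and Apob were under 1 CPM in all 5. The 10 trophoblast markers summed to between 129.8 and 393.8 CPM, with up to 4648 CPM in a cell and 5 to 7 members at 5 CPM or more. The keratin genes Krt8 (49.8 to 147.01 CPM) and Krt18 (31.7 to 148.1 CPM) led them, while Elf5 and Esrrb were under 1 CPM in all 5. Both sums were higher at E7.25 than at E6.75 in each set, and their part in the levels of Eomes was not tested.

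Eomes (ENSMUSG00000032446) lies on chromosome 9 from 118478212 to 118486132 on the plus strand, and T (ENSMUSG00000062327) on chromosome 17 from 8434423 to 8442496 on the plus strand (GRCm38, GENCODE M21). Their exons join to 4155 and 2315 bases. The 250 bases upstream of each RefSeq start (GRCm38.p6, chr9:118477939-118478188 and chr17:8434173-8434422, plus strand) are printed because T varied from cell to cell with several genes of the WNT list, whose pathway ends in TCF factors. Letters in capitals mark matches to a TCF core (CTTTGA, read here on the other strand) and to a T-box core (AGGTGT).
Eomes: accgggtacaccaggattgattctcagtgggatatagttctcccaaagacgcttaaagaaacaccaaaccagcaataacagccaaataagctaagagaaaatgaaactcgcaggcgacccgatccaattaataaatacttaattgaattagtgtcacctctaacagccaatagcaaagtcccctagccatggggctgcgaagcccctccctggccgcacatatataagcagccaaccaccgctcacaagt
T: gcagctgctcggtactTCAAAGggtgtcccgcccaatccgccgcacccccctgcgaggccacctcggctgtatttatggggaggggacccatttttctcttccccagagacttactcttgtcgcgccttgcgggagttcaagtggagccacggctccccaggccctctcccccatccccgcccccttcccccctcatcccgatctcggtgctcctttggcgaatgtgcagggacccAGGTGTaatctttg
Both strands were searched for these and for a FOXH1 core (AATNCACA) and a TATA core (TATAAA). The T window held the TCF core at chr17:8434189-8434194 and the T-box core at chr17:8434409-8434414, 14 to 9 bases upstream of the start. The Eomes window held none of the 4 in these exact letters. Other spellings were not searched. The Eomes window reads tatataag near its end, so a TATA element there is not excluded. Of 32851 promoter windows of that length, 13.8% held the TCF core, 11.8% the T-box core, 3.18% the FOXH1 core and 12.4% the TATA core, so such matches were common. The T window had 62.8% G and C against 46.4% in the Eomes window.

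At E6.75 nearly every cell carried both transcripts. Eomes per WT cell ran from 34.2 to 1103 CPM with a median of 339.2 CPM in set 1, and from 1.68 to 1253 CPM with a median of 415 CPM in set 2. T per WT cell ran from 0 to 1287 CPM with a median of 222.3 CPM in set 1, and from 7.04 to 911 CPM with a median of 290 CPM in set 2. The quartile ranges of the sets overlapped for both genes, and both medians were higher in set 2. T was the more uneven of the 2 genes from cell to cell: the SD of log2(CPM + 1) was 2.08 in set 1 and 1.27 in set 2, against 0.92 and 0.99 for Eomes.

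In the KO cells Eomes ran from 13.1 to 1053 CPM with a median of 388 CPM, and T from 1.999 to 1450 CPM with a median of 333.1 CPM. Both medians lay above those of the WT cells of the same set, and the quartile ranges overlapped (259.3 to 560 against 223.9 to 443.7 CPM for Eomes, 162.1 to 506 against 84.7 to 406 CPM for T). The KO cells as a whole thus held both T-box transcripts in the range of the WT cells, while their Mesp1 was at a median of 7.501 CPM.

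At E7.25 the cells had spread apart. Eomes in set 1 ran from 0.73 to 1214 CPM with a median of 203.2 CPM, and in set 2 from 0 to 1332 CPM with a median of 207.4 CPM. T in set 1 ran from 0 to 1284 CPM with a median of 85.7 CPM, and in set 2 from 0 to 2944 CPM with a median of 98.7 CPM. Cells under 10 CPM of Eomes made up 6.36% of set 1 and 19.05% of set 2, against 0% and 1.12% of the WT cells at E6.75. Cells under 10 CPM of T made up 25.4% and 27.4%, against 4.82% and 1.12%. At the other end 14.9% of the set 2 cells were above 1000 CPM of T, against 0.58% of the set 1 cells, and the 10% of set 2 cells with the most T reads held 59.3% of all T reads of that set.

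**Figure D1:**
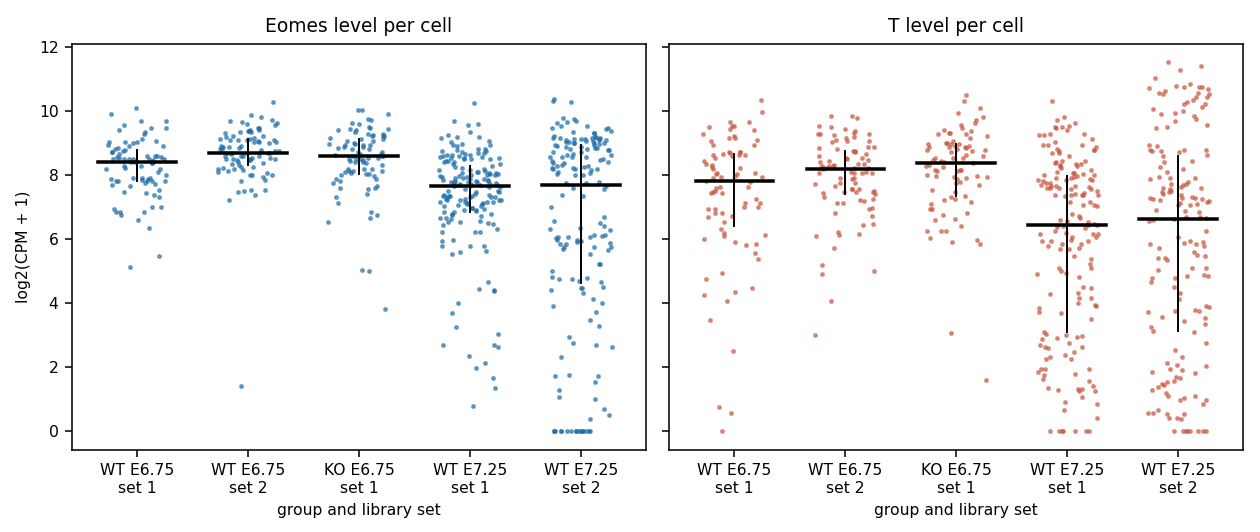
Each point is 1 cell; the y axis is log2(CPM + 1) of Eomes (left) or T (right), the x axis the group and library set, with a horizontal bar at the median and a vertical line over the quartiles. The E6.75 cells, WT and KO, are gathered near the top, and the E7.25 cells spread down to 0, with a band of high T cells in set 2.

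Summed over cells, the order for Eomes was 446 CPM in WT cells at E6.75 of set 2, 387 CPM in KO cells, 347 CPM in WT cells at E6.75 of set 1, 252.8 CPM at E7.25 in set 2 and 207.1 CPM at E7.25 in set 1. For T the order was 374 CPM at E7.25 in set 2, 344 CPM in KO cells, 333.2 CPM in WT cells at E6.75 of set 2, 292.6 CPM in those of set 1 and 166.04 CPM at E7.25 in set 1. The quartile ranges over cells overlapped between all neighbours in both orders. Eomes at E7.25 in set 1 (quartiles 113.3 and 307.8 CPM) and at E6.75 in set 2 (316.7 and 558 CPM) did not overlap in their quartiles. Counting error is small beside these spreads, at 343 to 351 CPM (95% exact Poisson interval) for the Eomes sum of 347 CPM. Fewer expressing cells and less RNA per cell cannot be told apart in a sum, which is why levels per cell stand beside it.

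Set against the rest of the family, T was the highest T-box gene per kilobase of exon in all 5 combinations of group and set, and Eomes was the next in all but 1. Per kilobase T stood at 126.4 CPM and Eomes at 83.5 CPM in WT cells at E6.75 of set 1, and at 148.4 and 93.04 CPM in KO cells. The exception was E7.25 in set 2, where Tbx6, a factor of presomitic mesoderm, stood at 64.5 CPM per kilobase and Eomes at 60.8 CPM per kilobase. Among 21397 protein-coding genes the level of T per kilobase was at the 97.2 percentile and that of Eomes at the 95.3 percentile in WT cells at E6.75 of set 1. Tbx18, Tbx19 and Tbx10 had 0 reads in the WT cells at E6.75 of either set, which allows up to 3 reads in the 94706898 and 161464619 reads of those cells.

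The balance of the 2 genes was taken in each cell as log2 of Eomes over T, both in CPM per kilobase with 1 added, so that 0 means equal levels. Its median was -0.50 in WT cells at E6.75 of set 1 (95% order-statistic interval -0.85 to -0.03), -0.05 in those of set 2 (-0.39 to 0.17) and -0.44 in KO cells (-0.87 to 0.00). At E7.25 it was 0.09 in set 1 (-0.32 to 0.63) and 0.60 in set 2 (-0.32 to 1.10). These intervals cover the drawing of cells only. The medians thus lay within a factor of 2 of equality in every group.

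What differed between the stages was the spread of the balance. Its interquartile range was 2.36 and 1.42 in the WT cells at E6.75 of sets 1 and 2 and 1.963 in KO cells, against 4.67 and 7.36 at E7.25 in sets 1 and 2. Cells in which 1 gene exceeded the other at least 8-fold made up 14.5%, 3.37% and 3.53% of the 3 E6.75 samples, in that order. At E7.25 they made up 35.8% and 55.4% of the cells. In set 1 these were 43 cells on the side of Eomes and 19 on the side of T, and in set 2 they were 41 and 52 cells.

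Equal depth gave the same picture. With each cell thinned to 100000 reads, reads of both genes were found in 95.2% (Clopper-Pearson 95% interval 88.1 to 98.7), 98.9% (93.9 to 99.97) and 98.8% (93.6 to 99.97) of the WT cells of set 1, the WT cells of set 2 and the KO cells at E6.75. At E7.25 the shares were 76.3% (69.3 to 82.4) and 58.9% (51.1 to 66.4). Among the E7.25 cells of sets 1 and 2, 19.7% and 20.8% had reads of Eomes alone and 4.05% and 17.3% of T alone. Both genes at 100 CPM or more, on unthinned levels, were found in 69.9%, 85.4% and 82.4% of cells at E6.75 and in 37.6% and 21.4% at E7.25. As deposited, without thinning, 96.0% and 85.7% of E7.25 cells had a read of both, so a cell short of 1 gene at equal depth often held a little of it.

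Across cells the 2 genes were only weakly related. Spearman's rho was 0.17 over 83 and 0.19 over 89 WT cells at E6.75, and 0.23 over 85 KO cells. At E7.25 it was -0.04 over the cells of set 1 and -0.33 over those of set 2. The cells of each value share embryos, library set and a range of depths, so these are descriptions without a p-value.

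**Figure D2:**
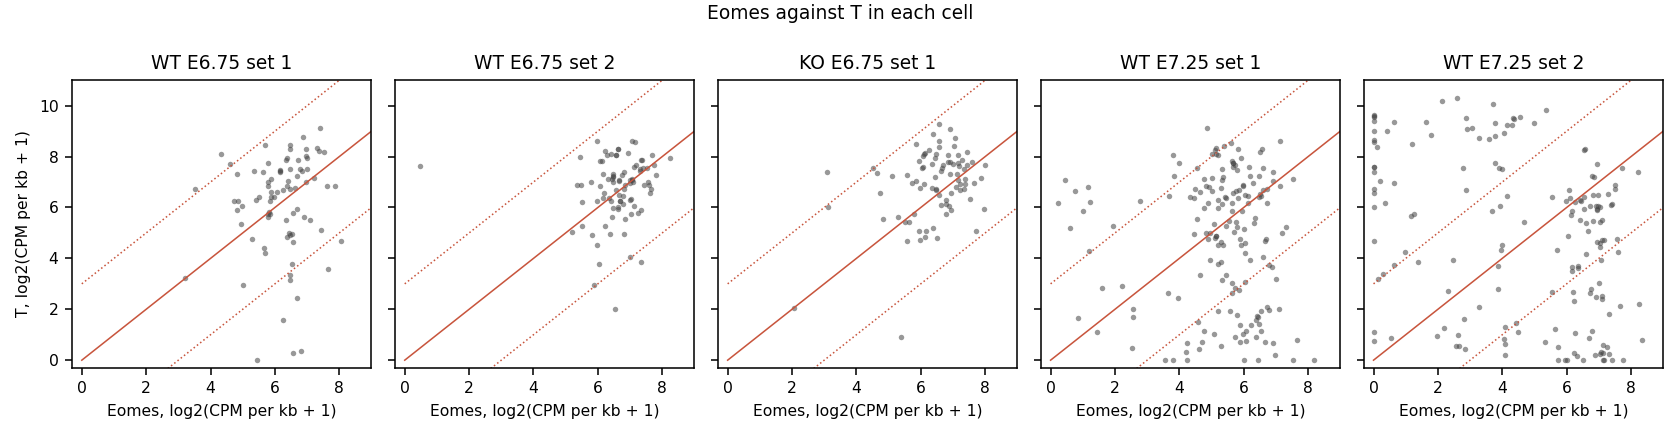
Each point is 1 cell, with log2(CPM per kilobase + 1) of Eomes on the x axis and of T on the y axis, 1 panel for each group and library set; the solid line marks equal levels and the dotted lines an 8-fold difference. The E6.75 panels hold 1 cloud near the upper end of the solid line, and the E7.25 panels also hold cells along each axis.

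Between stages Eomes was lower at E7.25 in both sets, with log2 ratios of summed CPM of -0.74 in set 1 and -0.82 in set 2. Over all genes of at least 5 CPM in either group, 3.59% were at least 2-fold lower and 6.3% at least 2-fold higher in set 1, and 2.18% and 4.94% in set 2, so the summed Eomes ratio did not reach the fold that these genes passed. The size of the Eomes difference varied with how it was taken. As the mean of log2(CPM + 1) per cell Eomes differed by -0.99 in set 1 and by -2.30 in set 2. In the set 1 cells with Y-linked reads its summed ratio was -1.10, and in those without them -0.23. T was lower in set 1, with a log2 ratio of -0.81, and slightly higher in set 2, with 0.17. Taken as the mean of log2(CPM + 1) per cell, T differed by -1.53 in set 1 and by -2.01 in set 2. The summed value of set 2 thus runs against the level of its typical cell.

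Most T reads of set 2 at E7.25 lay in 1 cluster of cells. Cells were clustered within each group on the 2000 most variable genes, without Eomes, T and 95 genes that separate the library sets. One E7.25 cluster, paraxial and presomitic mesoderm-like by Tbx6, Dll1, Msgn1, Hes7, Aldh1a2 and Meox1, held 37 cells of set 2, 22.02% of its E7.25 cells, and 6 cells of set 1, 3.47%. These cells held 66.7% of the T reads and 22.8% of all reads in set 2, and 4.51% and 1.93% in set 1. With its cells left out, the log2 ratio of T was -1.04 in set 2 and -0.85 in set 1, and that of Eomes -0.49 and -0.72. Spearman's rho between Eomes and T in set 2 was then 0.0065. This cluster was singled out after its T level was seen, and leaving out cells rich in T from the later stage alone must lower the T sum. The values without it thus describe where the T reads lay and give no account of the difference between the sets.

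In that presomitic-like cluster T had a median of 963 CPM (quartiles 359 and 1503) and Eomes of 26.1 CPM (0.16 and 65.4), and the median balance was -6.07. All of its 43 cells lay on the side of T. The set 2 cells had the higher T median, 1066 CPM against 314.4 CPM in the 6 cells of set 1. Of these 6 cells 5 had Y-linked reads.

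The opposite pole was a cluster of 35 cells that took no name from the marker lists. Its leading genes included Fgf5, a ligand of the epiblast, and Lhx1 and Gsc, homeobox genes of anterior mesendoderm. Eomes had a median of 449 CPM (263.5 and 579) there and T of 5.75 CPM (0.78 and 42.95), and the median balance was 5.04. Its 15 cells of set 1 and 20 of set 2 had T medians of 7.07 and 3.45 CPM. Their Eomes medians were 240.7 and 566 CPM, against 203.2 and 207.4 CPM over all E7.25 cells of sets 1 and 2. The 30 cells of a cluster led by Tbx3, Kdr, Mixl1 and Evx1 had medians of 427 CPM for Eomes and 117.5 CPM for T. Here too the Eomes median was higher in set 2, at 480 CPM in 24 cells against 213.4 CPM in 6 cells of set 1. Of these 6 cells 0 had Y-linked reads. The name rule called this cluster primitive streak-like from Mixl1, Evx1 and Wnt3. Kdr, a gene of endothelial precursors, was among its leading genes, so the cluster is given here by those genes.

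In 2 clusters the medians of both genes in CPM were alike, though per kilobase T was the higher in both. In the epiblast-like cluster of 35 cells, marked by Cldn6, Cdh1, Pim2 and Utf1 among its leading genes, Eomes had a median of 230 CPM and T of 270 CPM. Their values spread widely, with T quartiles at 154.2 and 650.04 CPM. The median balance of this cluster was -1.69 (quartiles -2.94 and 0.02), and 25.7% of its cells lay on the side of Eomes. A cluster of 36 cells led by Lefty1 and Lefty2, inhibitors of Nodal, had medians of 164.2 CPM for Eomes and 165.2 CPM for T. Its median balance was -0.59, with 33.3% of cells on the side of Eomes. Of the set 1 cells, 13 of 21 in the epiblast-like cluster and 28 of 31 in this one had Y-linked reads.

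Both genes were low in other cells. In the extraembryonic mesoderm-like cluster (35 cells, Hand1, Ahnak, Bmp4 and other markers) the medians were 48.8 CPM for Eomes and 14.1 CPM for T. In a cluster of 33 cells led by Alx1 and Tcf15, which took no name, they were 60.99 and 2.61 CPM. There the sets differed for Eomes, with a median of 342 CPM in 9 cells of set 1 and 31.2 CPM in 24 cells of set 2. Y-linked reads were found in all 9, and in 17 of 25 set 1 cells of the extraembryonic mesoderm-like cluster. The part of sex or embryo in the levels by cluster was not tested.

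At E6.75 the clusters differed far less. Over the 6 WT clusters the median of Eomes ran from 292.97 to 522 CPM and that of T from 89.5 to 371 CPM. The lowest T belonged to the haemato-endothelial-like cluster (14 cells, with Etv2, Kdr and Gata2), where Eomes stood at 384 CPM. Over the 5 KO clusters the medians ran from 274.8 to 447 CPM for Eomes and from 138.04 to 437 CPM for T, both lowest in the epiblast-like cluster of 12 cells.

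**Figure D3:**
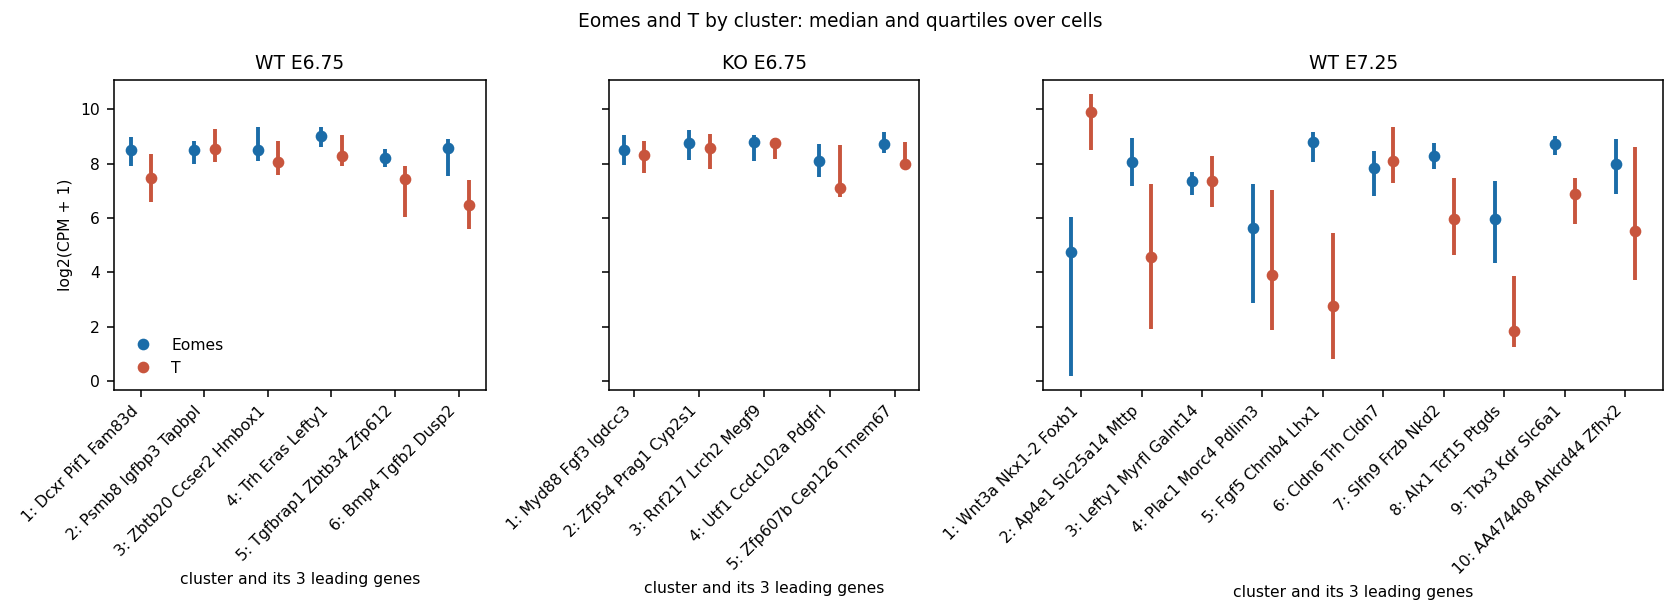
For each cluster of each group (x axis, with its 3 leading genes) the points give the median and the lines the quartiles over cells of Eomes and T in log2(CPM + 1). The E7.25 clusters reach from T far above Eomes (cluster 1, medians of 963 and 26.1 CPM) to Eomes far above T (cluster 5, medians of 449 and 5.75 CPM), while the E6.75 clusters lie close together.

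In the KO cells against the WT cells of set 1, the log2 ratio of summed CPM was 0.15 for Eomes and 0.23 for T. Over genes of at least 5 CPM, 5.78% were at least 2-fold lower and 3.2% at least 2-fold higher, and neither member reached that fold. The mean of log2(CPM + 1) per cell differed by 0.21 for Eomes and by 0.81 for T, and with the deepest 5% of cells left out the log2 ratios were 0.28 and 0.57. For T the result depended on the cells with Y-linked reads. Among these (49 KO and 53 WT cells) T was lower in the KO cells, with a log2 ratio of -0.37 (277.3 against 358 CPM). Among cells without them (36 and 30) it was higher, with 1.43 (469 against 173.1 CPM), and the medians per cell were 389 and 130 CPM. Eomes stood at 0.0022 and 0.47 in the same splits. Against the WT cells of both sets together Eomes was at -0.082. Since no embryo is named, a difference between sexes and one between embryos cannot be told apart.

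The WT cells used here as the base are also the E6.75 cells of set 1 in the stage comparison. The 2 comparisons therefore share them, and their values for the same genes are set side by side without a measure of likeness.

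Genes reported to need Eomes, a list chosen from general knowledge of gastrulation, were mixed in the KO cells. Of 12 measured members (5 CPM or more in either group) 4 were at least 2-fold lower and 1 higher, against 5.78% and 3.2% of all genes, and the median log2 ratio was -0.62 against -0.03 over all 10588 genes. Mesp1 is among the 4. The labels do not say whether it is the gene knocked out, and without it 3 of 11 were lower and 1 higher, with a median of -0.57. Beside Mesp1, Gata4 stood at 48.8 against 139.3 CPM and Snai1, a repressor of E-cadherin, at 114.5 against 283.5 CPM. Foxa2, a factor of endoderm and axial mesoderm, was higher, at 10.5 against 3.79 CPM. Markers of nascent mesoderm (10 genes, Mesp1 among them) summed to 468 CPM in KO and 2075 CPM in WT cells.

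Of 10 measured genes reported to need Brachyury, 4 were at least 2-fold lower and 1 higher, against 5.78% and 3.2% of all genes. Their median log2 ratio was 0.01. By sign alone 5 were below 0 and 5 above. The low ones included Dll1, a Notch ligand, at 2.48 against 17.3 CPM, Tbx6 at 2.76 against 17.4 CPM and the WNT enhancer Rspo3 at 10.2 against 38.6 CPM. Snai1 was the other, and it is counted in the Eomes list as well. Tbx6 also counts in the T-box family and Rspo3 in the WNT list, so the counts of these lists are not separate. Of 4 measured relatives in the T-box family 3 were at least 2-fold lower, against the same 5.78% of all genes. They were Tbx20 (0.77 against 8.04 CPM), Tbx6 and Tbx3 (15.5 against 37.6 CPM). With a minimum of 20 CPM, 2 of the Brachyury list and 1 of the T-box family remained.

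Signals upstream of both members were read against the same shares of all genes, 5.78% lower and 3.2% higher. In the Nodal list 1 of 14 measured members was at least 2-fold lower and 3 higher. Lefty2 stood at 24.1 against 279.03 CPM, while Nodal itself stood at 89.4 against 35.6 CPM, Lefty1 at 19.1 against 7.17 CPM and the activin antagonist Fst at 764 against 363 CPM. In the WNT list 2 of 19 were lower (Wnt5a, 1.98 against 26.8 CPM, and Rspo3) and 2 higher (Wnt3a, 7.46 against 2.57 CPM, and the antagonist Dkk1, 78.3 against 38.1 CPM). The counts of lower genes in the Nodal and WNT lists lie near the share over all genes within set 1. Against the WT cells of both sets together they were 2 and 6, and the share over all genes was not taken there. In the FGF list 4 of 14 were lower and 0 higher, among them Fgf3 at 6.25 against 158.2 CPM and Fgf15 at 38 against 164.4 CPM. Of 12 epiblast genes 0 were lower and 2 higher: Utf1 at 158.03 against 7.37 CPM, read in 41.2% and 22.9% of cells, and Cldn6 at 124.4 against 28.3 CPM.

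**Figure D4:**
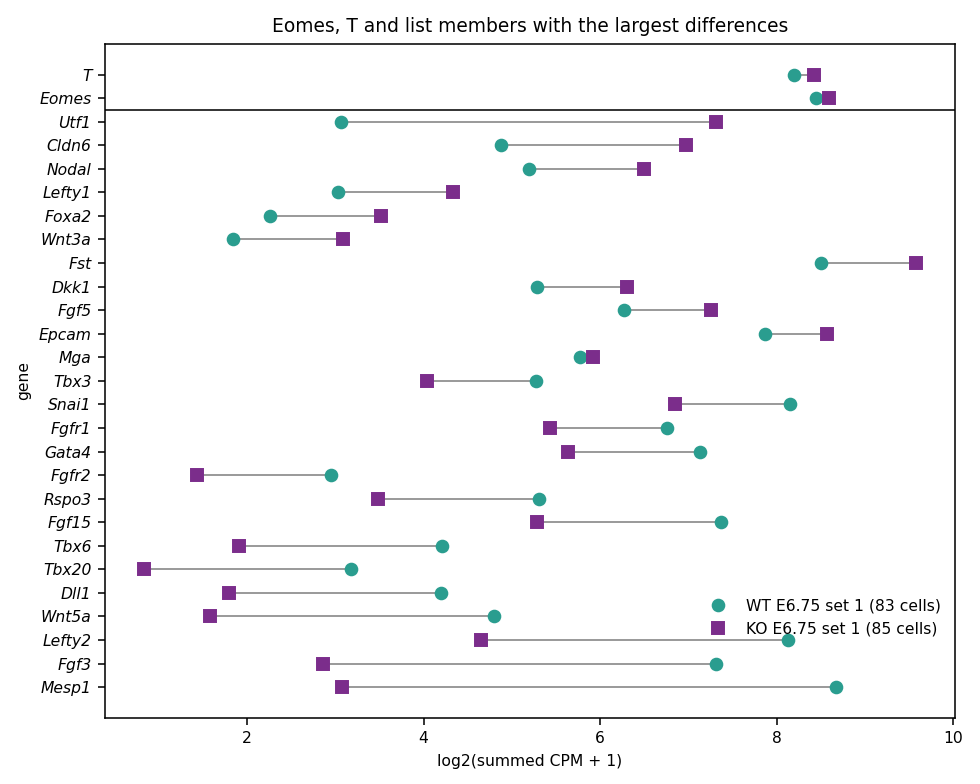
Summed CPM, as log2 with 1 added, of Eomes, T and the list members with the largest differences (y axis) in the 83 WT cells (circles) and 85 KO cells (squares) at E6.75 in set 1. Eomes and T, in the upper rows, lie close in both groups, and Mesp1, Fgf3 and Lefty2 at the bottom differ most toward lower KO levels.

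Between stages the ligands of these lists went in both directions. Nodal stood at 0.81 against 35.6 CPM in set 1 (E7.25 against E6.75) and at 3.95 against 40.1 CPM in set 2, and Fgf8 at 17.5 against 157.7 CPM and 30.05 against 230.4 CPM. Wnt3, a ligand upstream of T, stood at 38.7 against 99.4 CPM and 46.9 against 146.9 CPM. Other ligands were higher at E7.25. Fgf3 stood at 463.8 against 158.2 CPM in set 1 and 266.7 against 131.1 CPM in set 2, Fgf4 at 40.2 against 12.7 CPM and 21.6 against 7.68 CPM, and Wnt2b at 16.5 against 3.41 CPM and 16.8 against 6.03 CPM. The antagonist Cer1 was higher, at 128.6 against 15.5 CPM and 163.5 against 14.8 CPM. Over all genes 3.59% were at least 2-fold lower and 6.3% higher in set 1, and 2.18% and 4.94% in set 2. In the Nodal list 3 of 14 members were at least 2-fold lower and 5 higher in set 1, and 1 and 4 of 14 in set 2. The counts were 4 and 5 of 18 and then 3 and 3 of 20 in the WNT list, and 2 and 2 of 14 and then 2 and 4 of 14 in the FGF list.

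The next 3 lists were read against the same shares of all genes, 3.59% lower and 6.3% higher in set 1, and 2.18% and 4.94% in set 2. Of the genes reported to need Eomes, 2 of 12 were at least 2-fold lower and 2 higher in set 1, and 2 and 2 of 13 in set 2. Mixl1, a homeobox gene of the primitive streak, stood at 221.7 against 1088 CPM in set 1 and at 375 against 1925 CPM in set 2. Gsc stood at 10.2 against 56.2 CPM and 22.5 against 102.98 CPM. Of the genes reported to need Brachyury, 3 of 10 were lower and 4 higher in set 1, and 3 and 7 of 14 in set 2. Mixl1 is counted among the lower genes of both the Eomes and the Brachyury list. Dll1 stood at 127.5 against 17.3 CPM and 222.8 against 16.7 CPM. Tbx6 stood at 35.6 against 17.4 CPM and 116.3 against 19.8 CPM. Of the epiblast list 3 of 11 and 4 of 12 were lower, led by Nanog at 13.4 against 92.8 CPM and 12.3 against 76.3 CPM. Its higher counts were 1 and 0.

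Genes that varied with T from cell to cell were then sought among 5605 genes with a mean of at least 20 CPM and a read in at least 25% of cells in all 5 combinations of group and set. Likeness was the mean of the 5 rho values, and a gene was named only if all 5 had 1 sign. Fst was the most like T, with a mean rho of 0.55 and values of 0.52, 0.42, 0.42, 0.66 and 0.71 in the order of WT E6.75 set 1, WT E6.75 set 2, KO, E7.25 set 1 and E7.25 set 2. Pou5f1, a pluripotency factor, followed with a mean of 0.44 (0.11 in KO cells and 0.31 to 0.68 in the others). Next were Tceal8 (0.44), the peptide ligand Apln (0.43), Tspan13 (0.43), Sp8 (0.42), a zinc finger factor of the WNT response, the planar polarity gene Prickle1 (0.41) and Tnfrsf19 (0.38). In all, 18 genes had a mean above 0.3 with 1 sign.

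On the other side, T was low where Car4, a carbonic anhydrase, was high, with a mean rho of -0.34 and -0.16 to -0.53 over the 5 values. The others were Bag3 (-0.32), the BMP and activin pseudoreceptor Bambi (-0.31), Maged1 (-0.31), Slc25a4 (-0.30), Lhx1 (-0.28), Slc27a3 (-0.27) and the tropomyosin gene Tpm1 (-0.27). KO cells gave the value nearest 0 for 6 of the 8: Bag3 (-0.05), Bambi (-0.16), Maged1 (-0.12), Slc25a4 (-0.13), Slc27a3 (-0.19) and Tpm1 (-0.05). The exceptions were Car4 and Lhx1.

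Members of the WNT list were then read for T. Of 15 measured members 7 were positive in all 5 combinations, against 5.63% of 9137 genes: Sp8, Wnt5b (mean rho 0.36), Rspo3 (0.29), Axin2 (0.28), Tcf7 (0.24), Lef1 (0.16) and Wnt3 (0.15). Tcf7l1, a repressor of WNT targets, and the receptor Fzd7 were negative in all 5, with means of -0.19 each, against 5.65% of genes. Of 10 epiblast genes 6 were positive in all 5, among them Nanog (0.41), Cdh1 (0.34) and Dnmt3b (0.31). In KO cells these 3 had values of 0.24, 0.06 and 0.09. Others of the list went the other way: Otx2 and Fgf5 had means of -0.17 and -0.03, and Epcam was at -0.09 in KO cells. For Eomes the counts were 4 of 15 and 2 of 10, against 5.28% of genes positive in all 5. The list medians of the mean rho with T were 0.16 (WNT) and 0.22 (epiblast), against 0.00 over all genes.

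Eomes had weaker company. Its highest mean rho was 0.28, with Otx2, a homeobox factor of the anterior epiblast (0.29, 0.14, 0.17, 0.27 and 0.55 in the same order). Tdgf1, the Nodal co-receptor also called Cripto, had 0.27, but with 0.03 and 0.02 in the WT and KO cells of set 1 at E6.75 and 0.44 and 0.72 at E7.25. Socs2 (0.27), Smarcc1 (0.26), Eif3a (0.25), Rragd (0.24) and Pds5b (0.24) followed. The most opposite were Ndufb7 (-0.27), Fth1 (-0.24), Sod1 (-0.23), Cox18 (-0.22), Fam136a (-0.22), Myl12a (-0.21), Srp14 (-0.21) and Txn1 (-0.21). No gene had a mean beyond 0.3 in either direction.

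Transcript length moved with this order for Eomes. The 8 genes most like Eomes had a median exon length of 8282 bases and the 8 most opposite 3035 bases, against 4451 bases over all 5605. Across these genes, which are not independent, exon length and mean rho with Eomes had a Spearman's rho of 0.48 (0.22, 0.21, 0.33, 0.11 and 0.41 in the 5 combinations). The same value for T was 0.00 (-0.01, -0.02, 0.19, 0.02 and -0.16). The part of transcript length in the genes named for Eomes was not tested. With cells thinned to 100000 reads, 9 of the 16 genes named for Eomes and 12 of the 16 named for T were still named.

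The highest values for Eomes were at E7.25 in set 2. Spearman's rho was 0.74 with Lhx1, 0.72 with Tdgf1, 0.72 with Gsc, 0.67 with Cyp26a1, an enzyme that degrades retinoic acid, 0.66 with the FGF feedback inhibitor Spry4 and 0.64 with Gata6. With the presomitic-like cluster left out, it was 0.67 with Lhx1, 0.69 with Tdgf1, 0.63 with Gsc, 0.63 with Cyp26a1 and 0.53 with Gata6. In set 1 the values were 0.32 with Lhx1, 0.44 with Tdgf1, 0.04 with Gsc, 0.19 with Cyp26a1 and 0.13 with Gata6. So Tdgf1 and Lhx1 were high with Eomes in both sets of the later stage, and Gsc in set 2. All 16 genes named for each member kept their sign in both sets without that cluster. They had been named for 1 sign in these same cells, and the cluster held only 6 cells of set 1. The kept sign was thus largely given in advance and adds no separate evidence. Fst had a rho of 0.52 and Pou5f1 of 0.49 with T in set 2 without it.

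The balance itself varied with genes of both sides. Toward Eomes the highest mean rho belonged to Car4 (0.35), Lhx1 (0.34), the chromatin protein gene Hmga2 (0.31), Bag3 (0.31), Upp1 (0.30) and Socs2 (0.28). Toward T they belonged to Fst (-0.44), Tspan13 (-0.42), Tceal8 (-0.35), Pou5f1 (-0.35), Prickle1 (-0.33) and Sp8 (-0.33). Lhx1 stood out at E7.25 in set 2, with 0.71. Most of these genes are also on the T lists above, with which the balance shares its T values. Hmga2 and Upp1 were named for the balance and for neither gene alone.

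**Figure D5:**
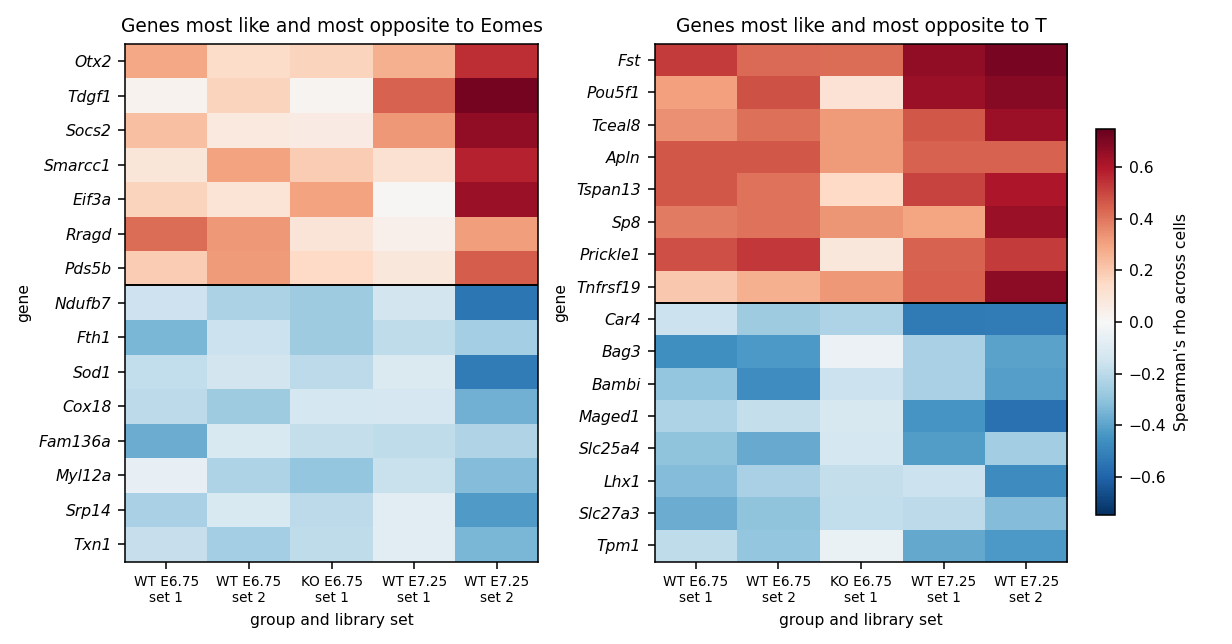
Spearman's rho across cells, as colour, of the genes named as most like and most opposite to Eomes (left, 7 and 8 genes) and T (right, 8 and 8 genes), with genes on the y axis and group and library set on the x axis. Fst is the strongest for T in most columns, from 0.42 to 0.71, while most of the genes named for Eomes are paler at E6.75 than at E7.25 in set 2.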

How the data were processed

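The authors' table holds whole-number counts for each gene and cell, without normalization, for 598 cells: 172 WT cells at E6.75 (83 and 89 in sets 1 and 2), 85 KO cells, and 341 WT cells at E7.25 (173 and 168). The submitters' processing notes name GSNAP, HTSeq 0.5.3p3 and the mm10 build, and libraries were plate-based whole-transcript Nextera XT, per the labels' protocols. That text describes adult bone marrow, against the embryonic labels. The strand setting is not given in the sources used here. Of 40912 identifiers 40254 matched GENCODE M21, and 0 columns had no sample. Duplicate reads were counted, since the method marks no molecules.

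Cells needed 100000 reads and 2000 genes, which removed 0. Counts were summed per group and library set and scaled to CPM, and log2 ratios had 1 CPM added. Scanpy 1.11.5 clustered cells (20 components, 15 neighbours, Leiden resolution 1, centred within set). A cluster was named from 3 or more markers at 2-fold. edgeR 4.0.16 and DESeq2 1.42.0 gave alternative scaling factors only. The steps were tested on simulated data. No doublet caller was run on the sorted wells. No p-value is given, since each group is 1 sample. Poisson and binomial intervals cover counting error only.

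The genes named were, for each member, the 8 highest and 8 lowest by mean rho (6 for the balance), and up to 4 members of each list with the largest ratio; mitochondrial, Y-linked, ribosomal protein and predicted genes were left out. One gene that this rule gave for Eomes is not reported here; it is counted in the numbers of named genes and in their median length. The members, lists and rules were chosen with earlier results of these data known.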

Additional observations from a re-analysis of the deposited data

Results flagged for a closer look

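T differed in direction between the library sets: the log2 ratio of E7.25 against E6.75 was -0.81 in set 1 and 0.17 in set 2. The difference was not tested, since each set is 1 sample a stage. T also differed in direction between cells with and without Y-linked reads in the knockout comparison, with log2 ratios of -0.37 and 1.43, and this difference was not tested either.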

How the results depend on the processing

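No paired analysis was possible because the numbers shared by the groups only name cells. The alternatives moved values more than the direction of most: of 60 alternative log2 ratios 5 changed sign. Values below are in the order Eomes KO, T KO (both against WT, set 1), Eomes set 1, T set 1, Eomes set 2 and T set 2 (E7.25 against E6.75). As means of log2(CPM + 1) per cell they were 0.21, 0.81, -0.99, -1.53, -2.30 and -2.01. With the deepest 5% of cells left out they were 0.28, 0.57, -0.65, -0.50, -0.67 and 0.10, and with all cells of both sets -0.082, 0.11, -0.78, -0.065, -0.78 and -0.065. In set 1 cells with Y-linked reads the first 4 were 0.0022, -0.37, -1.10 and -0.86, and without them 0.47, 1.43, -0.23 and -0.43. TMM factors gave 0.21 and 0.29 for the KO comparison and -0.86 and 0.12 for set 2. Median-of-ratios factors gave 0.19 and 0.27 for KO, -0.77 for Eomes in set 1, and -0.87 and 0.11 for set 2. Thinning to 100000 reads gave 0.38 for T in KO, and then -0.67, -0.69, -0.77 and 0.20. Adding 10 CPM gave -0.72, -0.78 and -0.79 (Eomes and T in set 1, Eomes in set 2). Cells of 500000 reads and 4000 genes gave -0.77 and -0.79 in set 1. Without the presomitic-like cluster (added after seeing the data) T was -0.85 in set 1, Eomes -0.49 and T -1.04 in set 2, and rho in set 2 was 0.0065; leaving out these T-rich cells lowers the T sum by construction.

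The median balance stayed near 0 and changed sign in 4 cases: 0.030 (E6.75 set 2, thinned), and at E7.25 in set 1 -0.018 (thinned), -0.052 (cells of 500000 reads) and -0.54 (with Y-linked reads), where rho was 0.058. In KO cells without Y-linked reads it was -0.91. The share of cells with both genes was, as deposited, 98.8%, 100% and 100% at E6.75 (WT set 1, WT set 2, KO) and 96.0% and 85.7% at E7.25. At 500000 reads it was 100% in KO and 89.6% and 77.6% at E7.25, and with 3 reads needed, 62.4% and 44.6% at E7.25. The cause of these shifts was not tested. At resolution 0.5 the highest cluster mean of T at E7.25 was 8.14 in place of 9.57 (log2). Among the alternative counts of list members at least 2-fold lower in KO cells, 7 moved and 14 stayed alike. Depth limits the finding of low T or Eomes in cells of about 100000 reads.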
